A study of Mus musculus with 14 samples.

Results

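The metallothionein genes Mt1, Mt2 and Mt3 and the zinc transporter genes Slc39a14, Slc30a1 and Slc30a3 were followed through the brains of mice with and without cortistatin after a mild stroke. The 6 genes were taken by symbol from a table of 46904 genes, of which 46102 entered the tests, all 6 included. None of the 6 passed the test in any comparison of hemisphere or genotype. Mt1 and Mt2 varied up to 4.03-fold between libraries and varied together, Slc39a14 and, less closely, Slc30a3 varied with them at a smaller amplitude. Mt3, Slc30a1 and Slc30a3 spanned 1.28-fold, 1.30-fold and 1.40-fold between their lowest and highest libraries.

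Male Cort+/+ and cortistatin-deficient Cort-/- mice on a C57BL/6J background underwent transient middle cerebral artery occlusion (MCAO) for 20 min, the mild form that the labels tie to mice of 12 weeks, and their brains were taken 48 h after stroke. Polyadenylated RNA was sequenced from whole hemispheres, either the ischemic side (MCAO) or the contralateral side (CL), which also came from operated animals and is no sham control. The groups held 3 Cort+/+ CL, 3 Cort+/+ MCAO, 3 Cort-/- CL and 5 Cort-/- MCAO libraries, described as independent biological replicates. The sources used here do not say whether an MCAO and a CL library with the same number came from the same mouse. The Cort-/- mice lack the neuropeptide gene in every cell throughout life. Levels are given in RPKM, reads scaled to the length of the gene and to the reads of the library, and the 14 libraries held between 25989673 and 43032291 reads on genes. Cort itself had 64 to 139 reads in each Cort+/+ library and 0 to 4 in each Cort-/- library.

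Metallothioneins are small cysteine-rich proteins that bind zinc and copper through their thiol groups and buffer the free metal in the cell. In brain, Mt1 and Mt2 are made largely by astrocytes and are inducible by metals, glucocorticoids and inflammatory cytokines, whereas Mt3 is the form typical of neural tissue and responds little to these inducers. Zinc leaves the cytosol through ZnT transporters of the Slc30a family and enters it through ZIP transporters of the Slc39a family. Slc30a1 encodes ZnT1, the exporter of the plasma membrane, Slc30a3 encodes ZnT3, which loads zinc into the synaptic vesicles of forebrain glutamatergic neurons, and Slc39a14 encodes ZIP14, an importer of zinc, iron and manganese that interleukin-6 induces in liver. The transcription factor Mtf1 senses zinc and binds metal response elements in metallothionein promoters and in that of Slc30a1.

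In a GENCODE annotation of GRCm39, the 4 mouse metallothionein genes lie in a row on the plus strand of chromosome 8, within 43.1 kb. Mt3 spans chr8:94879220-94881088, Mt2 chr8:94898819-94900207 and Mt1 chr8:94905710-94906955, so that 5.5 kb separates Mt2 from Mt1 and 17.7 kb separates Mt3 from Mt2. The first listed transcript of each has 3 exons. Slc30a1 lies at chr1:191638808-191645361 on the plus strand, Slc30a3 at chr5:31241914-31265581 on the minus strand and Slc39a14 at chr14:70540678-70588914 on the minus strand. The coding sequences of the 3 metallothioneins, without the stop codon, are shown because they hold the metal-binding residues and because their likeness bears on whether reads can be assigned, with the in-frame cysteine codons in capitals.
Mt1: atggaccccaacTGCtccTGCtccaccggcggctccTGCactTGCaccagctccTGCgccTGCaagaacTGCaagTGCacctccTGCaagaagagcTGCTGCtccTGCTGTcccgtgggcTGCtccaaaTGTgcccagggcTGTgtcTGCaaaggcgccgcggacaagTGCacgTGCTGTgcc
Mt2: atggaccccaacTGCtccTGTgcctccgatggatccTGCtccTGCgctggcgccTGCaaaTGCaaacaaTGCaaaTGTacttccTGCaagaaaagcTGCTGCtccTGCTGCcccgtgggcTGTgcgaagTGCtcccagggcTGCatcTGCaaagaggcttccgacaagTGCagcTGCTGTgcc
Mt3: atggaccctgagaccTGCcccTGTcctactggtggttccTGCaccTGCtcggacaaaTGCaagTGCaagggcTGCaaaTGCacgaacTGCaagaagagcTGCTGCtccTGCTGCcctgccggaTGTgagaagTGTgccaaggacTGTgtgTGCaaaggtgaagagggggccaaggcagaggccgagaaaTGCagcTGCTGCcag
Each encodes 20 cysteines, which fill 32.8% of the 61 codons of Mt1 and of Mt2 and 29.4% of the 68 codons of Mt3. Aligned coding bases were 79.2% identical between Mt1 and Mt2, 73.2% between Mt1 and Mt3 and 74.9% between Mt2 and Mt3. The longest run of identical bases between any pair of the 3 transcripts was 27, between Mt1 and Mt3. How the authors' counting treated reads that match several genes is not given in the sources used here.

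The promoters of the genes were read from RefSeq windows of GRCm38.p6, which reach from 250 bases before to 50 bases after each annotated start. Windows were found for Mt1, Mt2, Mt3, Slc30a1 and Slc30a3, and not for Slc39a14. The core of the metal response element was searched as TGCACNC and TGCGCNC on both strands, with overlapping matches counted separately. The 250 upstream bases of Mt1 and Mt2, which moved together, and of Slc30a1, which did not move with them, are shown in the direction of transcription, with the matches in capitals.
Mt1, chr8:94178839-94179088, plus strand: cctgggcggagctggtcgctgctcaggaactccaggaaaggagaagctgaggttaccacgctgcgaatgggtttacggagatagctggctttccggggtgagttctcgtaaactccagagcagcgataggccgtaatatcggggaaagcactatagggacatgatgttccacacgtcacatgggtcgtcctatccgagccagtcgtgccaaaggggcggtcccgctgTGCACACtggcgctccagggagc
Mt2, chr8:94172368-94172617, plus strand: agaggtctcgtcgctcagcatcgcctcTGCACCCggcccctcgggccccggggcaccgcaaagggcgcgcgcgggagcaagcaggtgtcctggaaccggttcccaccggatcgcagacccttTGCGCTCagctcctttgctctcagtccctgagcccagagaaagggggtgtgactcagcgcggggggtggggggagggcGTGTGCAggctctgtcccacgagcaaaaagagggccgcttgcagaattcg
Slc30a1, chr1:191906531-191906780, plus strand: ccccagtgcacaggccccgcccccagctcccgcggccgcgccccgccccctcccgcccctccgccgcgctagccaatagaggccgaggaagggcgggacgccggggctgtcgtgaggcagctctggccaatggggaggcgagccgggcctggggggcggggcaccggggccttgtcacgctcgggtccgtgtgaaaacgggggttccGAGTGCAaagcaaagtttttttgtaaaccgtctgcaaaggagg
The whole window of Mt2 held 4 matches, that of Mt1 held 3, of which 2 lay just after the annotated start, and that of Slc30a1 held 2. Mt3 had 1 match, after its start, and the 2 windows of Slc30a3 had 1 and 0. Among all 32851 RefSeq windows of the same length, 25.7% held 1 or more matches, 7.1% held 2 or more, 2.0% held 3 or more and 0.52% held 4 or more. Matches more than 50 bases after the annotated start were not counted, so the counts of these genes depend on where that start was placed. A match describes these letters only and is not a measured binding site.

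Mt1 and Mt2, the inducible metallothioneins, were among the more variable genes of these hemispheres. Mt1 stood at 167, 78.3 and 104 RPKM in the 3 Cort+/+ CL libraries and at 113, 209 and 115 RPKM in the 3 Cort+/+ MCAO libraries. In Cort-/- mice it stood at 86.4, 129 and 92.0 RPKM in CL and at 165, 121, 98.3, 259 and 144 RPKM in MCAO. The ranges of CL and MCAO overlapped in both genotypes: 1 Cort+/+ CL library, replicate 1, was higher than 2 of the 3 Cort+/+ MCAO libraries. Group means were 116 ± 45.5 (SD, n = 3) and 146 ± 55.1 (SD, n = 3) RPKM in Cort+/+ CL and MCAO, and 102.5 ± 23.2 (SD, n = 3) and 157 ± 61.9 (SD, n = 5) RPKM in Cort-/- CL and MCAO.

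Mt2 followed the same libraries up and down. It measured 188, 81.6 and 100.3 RPKM in Cort+/+ CL, 118, 276 and 119.6 RPKM in Cort+/+ MCAO, 90.3, 136 and 110.5 RPKM in Cort-/- CL, and 202, 137, 116, 329 and 209 RPKM in Cort-/- MCAO. All 5 Cort-/- MCAO libraries lay above the mean of Cort-/- CL and 4 lay above its highest library, whereas 1 of 3 Cort+/+ MCAO libraries lay above the highest Cort+/+ CL library. The highest library of both genes was Cort-/- MCAO replicate 4, and the next was Cort+/+ MCAO replicate 3. The Mt2 mean was 123 ± 56.7 (SD, n = 3) against 171 ± 90.7 (SD, n = 3) RPKM in Cort+/+ mice and 112 ± 23.0 (SD, n = 3) against 198 ± 83.3 (SD, n = 5) RPKM in Cort-/- mice.

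**Figure D1:**
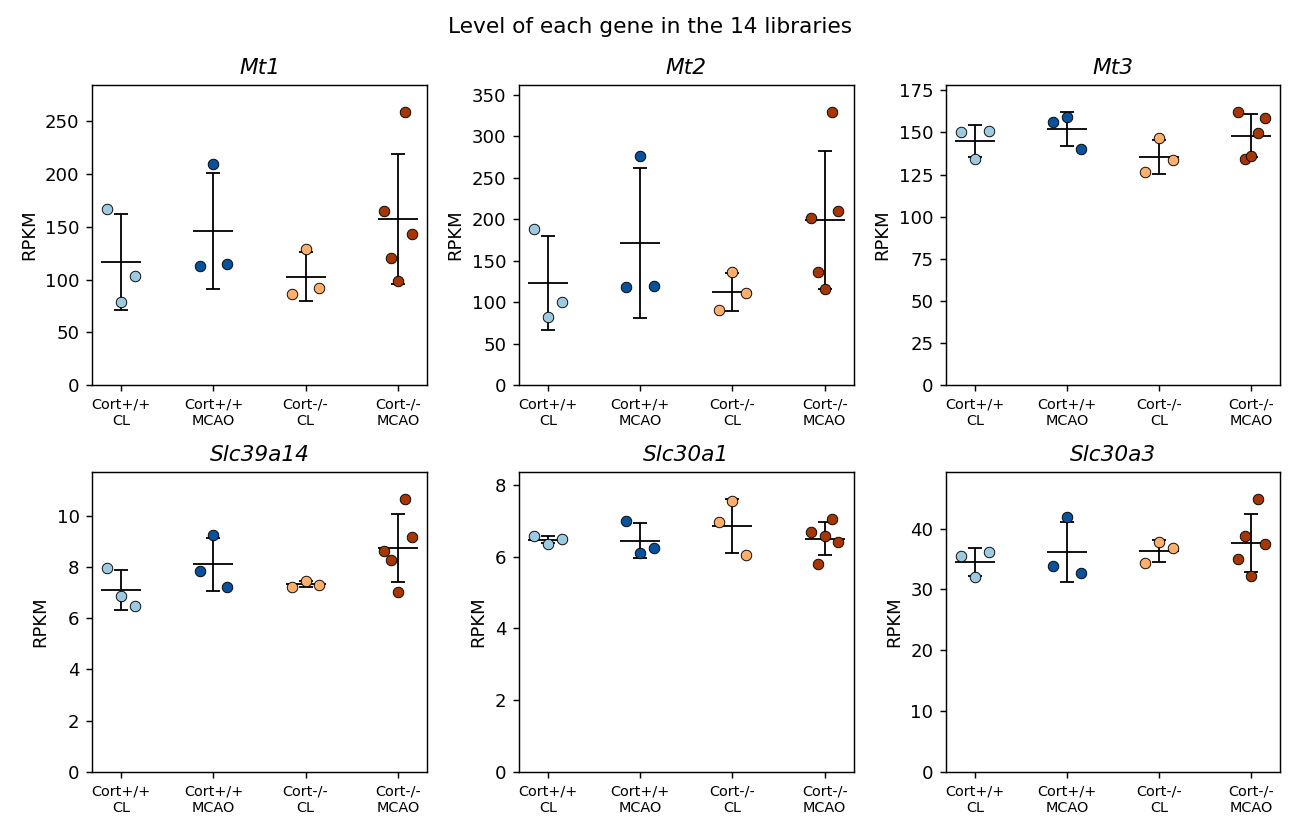
Level of each of the 6 genes in RPKM (linear axis from 0) in the 14 libraries, by genotype and hemisphere. Points are libraries, and the bars give the group mean ± SD; every MCAO group overlaps the CL group of its genotype, and Mt1 and Mt2 have the widest spread, from 78.3 to 259 and from 81.6 to 329 RPKM.

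Differences were tested with limma on log2(RPKM + 0.1), in 1 model of the 4 groups, with p-values adjusted over all 46102 genes. In Cort+/+ mice Mt1 was 1.26-fold (95% confidence interval 0.742 to 2.15) and Mt2 1.36-fold (0.731 to 2.54) the CL level in the MCAO hemisphere, with adjusted p = 0.90 and 0.89. Both ratios rested on single libraries: without Cort+/+ MCAO replicate 3 they were 1.03 for each gene, without Cort+/+ CL replicate 2 they were 1.06 and 1.15, and without Cort+/+ CL replicate 1 they were 1.55 and 1.74. In Cort-/- mice the ratios were 1.47 (0.916 to 2.37) for Mt1 and 1.68 (0.960 to 2.92) for Mt2, with adjusted p = 0.52 and 0.44, and without Cort-/- MCAO replicate 4 they were 1.28 and 1.45. Averaged over both genotypes, Mt1 was 1.36-fold (0.955 to 1.95, adjusted p = 0.43) and Mt2 1.51-fold (0.995 to 2.29, adjusted p = 0.34). All 6 intervals include no difference, and their upper limits lie between 1.95-fold and 2.92-fold, so the spread of these libraries allowed neither a difference nor the lack of one to be shown. In bulk tissue, fewer or more cells of a type and less or more RNA per cell cannot be told apart.

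None of the 6 genes passed the test in either genotype or in both. Over all genes the same test called 0.0108% in Cort+/+ mice (5 genes), 1.72% in Cort-/- mice (792 genes) and 3.43% over both genotypes (1579 genes), so a count of 0 of 6 lies near this background. A lack of overlap between CL and MCAO was found for none of the 6 genes, against 9.84% of all genes in Cort+/+ mice and 9.11% in Cort-/- mice. Hemisphere was also permuted within each genotype, over all 1120 arrangements. This exact two-sided permutation test of the mean within-genotype difference gave p = 0.116 for Mt1 and p = 0.0786 for Mt2, where the smallest possible p is 0.00179. Single Cort+/+ libraries moved these values from 0.45 for Mt1 and 0.60 for Mt2 on the log2 scale in both directions. Without CL replicate 1 the differences were 0.60 and 0.77, with exact permutation p = 0.0357 and 0.0232, and without MCAO replicate 3 they were 0.30 and 0.39, with exact permutation p = 0.271 and 0.207. The adjusted p of the limma test stayed above the threshold in both cases.

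**Figure D2:**
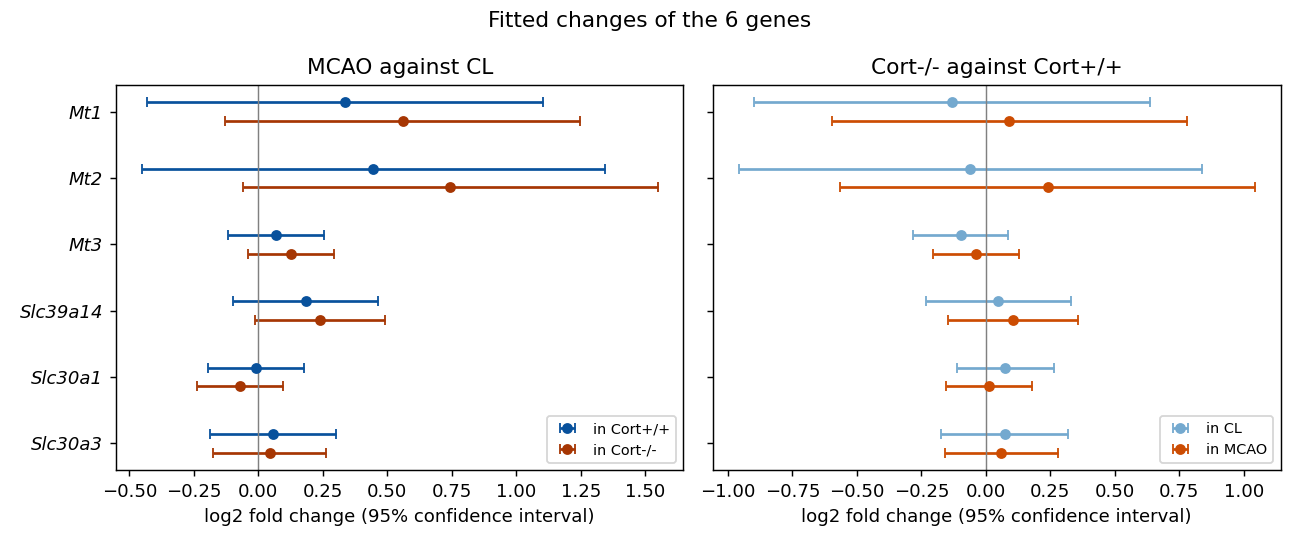
Fitted log2 fold changes of the 6 genes with their 95% confidence intervals, for MCAO against CL in each genotype (left) and for Cort-/- against Cort+/+ in each hemisphere (right). Every interval crosses 0, and those of Mt1 and Mt2 are the widest, reaching 1.25 and 1.55 in Cort-/- mice on the left.

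The spread of Mt1 and Mt2 was larger than their counting error. The fewest reads behind a value were 3236 for Mt1 and 1660 for Mt2, for which counting alone gives an error of at most 1.76% and 2.45%. Within groups the coefficient of variation was 22.6% to 39.4% for Mt1 and 20.5% to 53.0% for Mt2. On the log2 scale the within-group SD was 0.49 for Mt1 and 0.58 for Mt2, at percentiles 95.6 and 96.8 of the 15063 genes averaging 1 RPKM or more, whose median was 0.12. The other members were ordinary by this measure, with 0.17 for Slc39a14 (percentile 73.1), 0.15 for Slc30a3 (66.6), 0.11 for Mt3 (47.3) and 0.11 for Slc30a1 (44.6).

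**Figure D3:**
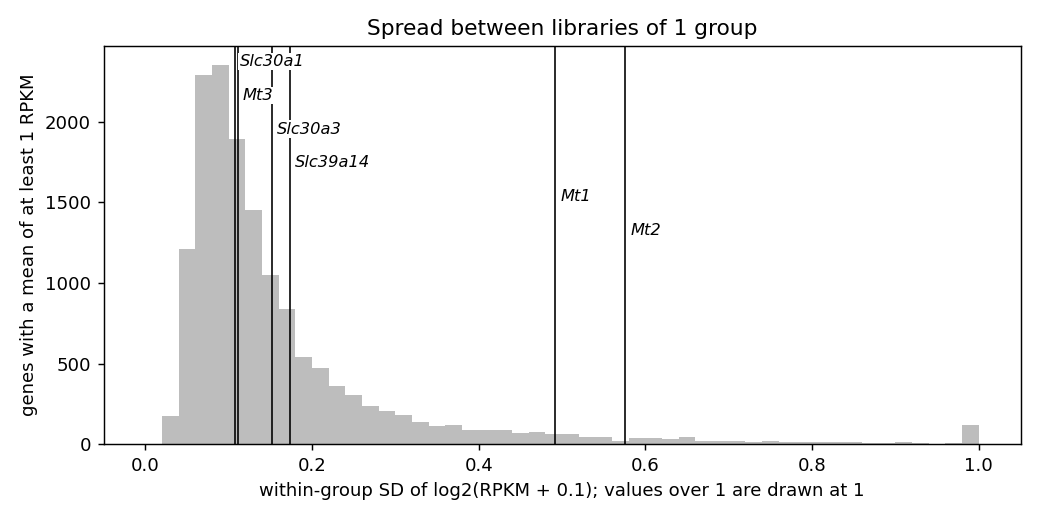
Histogram of the within-group SD of log2(RPKM + 0.1) over the 15063 genes averaging 1 RPKM or more, with a line for each of the 6 genes. Mt1 (0.49) and Mt2 (0.58) lie in the upper tail, and the other 4 lie in the body of the distribution.

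Mt1 and Mt2 varied in step across libraries. Their Pearson correlation on the log2 scale was 0.976 over the 14 libraries, and for each gene the other was the closest match among the 15063 genes. Next to Mt1 came Eif2b4 (0.965), a subunit of a translation initiation factor, and Tsc22d4 (0.963). Next to Mt2 came Gpd1 (0.972), the cytosolic glycerol-3-phosphate dehydrogenase, and Slc1a4 (0.958), a neutral amino acid transporter. These correlations describe 14 libraries that share hemisphere, genotype and processing, and no test was made of them. The ratio of Mt2 to Mt1 in RPKM was not fixed: it lay between 0.968 and 1.32 in Cort+/+ libraries and between 1.04 and 1.46 in Cort-/- libraries, and the 4 highest ratios, from 1.22 to 1.46, were those of the 4 libraries with the most Mt2.

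Slc39a14, the ZIP14 importer, had a slightly higher mean in MCAO in both genotypes and did not pass the adjusted test. It measured 7.97, 6.86 and 6.48 RPKM in Cort+/+ CL and 7.84, 9.23 and 7.22 RPKM in Cort+/+ MCAO. In Cort-/- mice the 3 CL libraries were tightly grouped at 7.23, 7.43 and 7.31 RPKM, and MCAO gave 8.63, 8.29, 7.01, 10.7 and 9.17 RPKM, with 4 of 5 above every CL library and replicate 3 below them. The ratio was 1.14 (95% confidence interval 0.935 to 1.38) in Cort+/+ mice and 1.18 (0.992 to 1.41) in Cort-/- mice. Over both genotypes it was 1.16 (1.02 to 1.32), with a limma adjusted p = 0.26, so the gene was not called. The exact permutation test within genotypes gave p = 0.0384, unadjusted for the 6 genes tested, and p between 0.0543 and 0.0929 in the 10 cases where leaving out 1 library took it past 0.05.

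Slc39a14 correlated with Mt2 at 0.927 and with Mt1 at 0.881 over the 14 libraries, with its range of 6.48 to 10.7 RPKM being 1.64-fold against 4.03-fold for Mt2. Its closest matches were Rhoj (0.972), a small GTPase of endothelial cells, Xdh (0.967), the xanthine dehydrogenase, and Chst2 (0.960), a sulfotransferase. The lists of neighbours of Mt1, Mt2 and Slc39a14 shared no gene beyond Mt1 and Mt2 themselves.

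**Figure D4:**
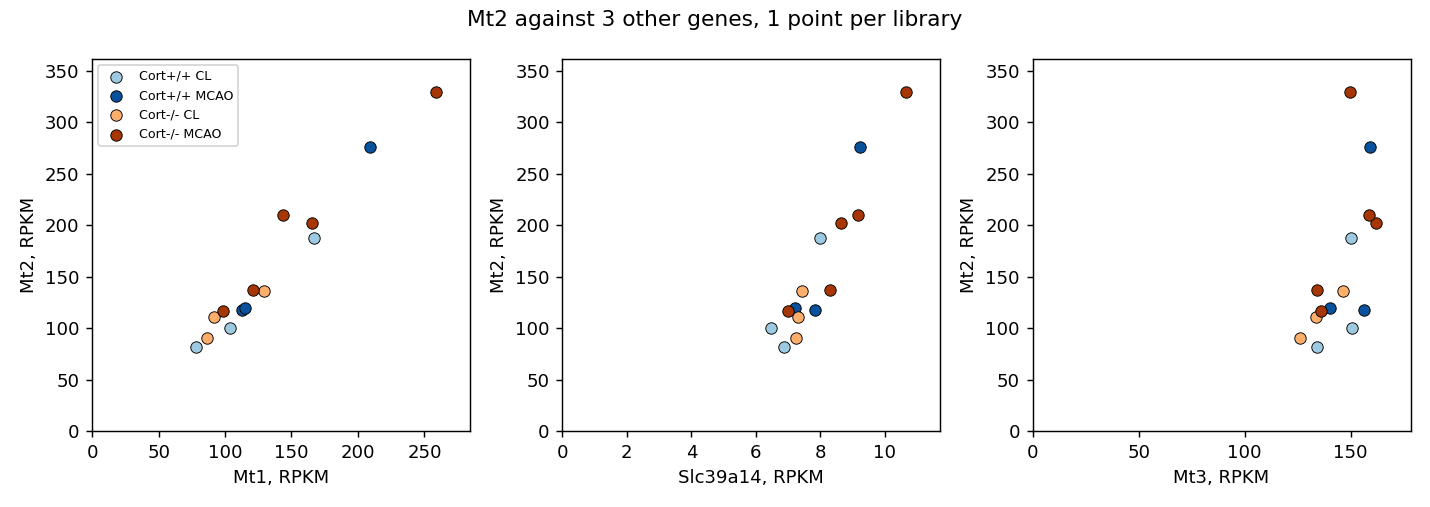
Mt2 level in RPKM (vertical, linear from 0) against Mt1, Slc39a14 and Mt3 in RPKM (horizontal, linear from 0), with 1 point per library coloured by group. Mt2 follows Mt1 (correlation 0.976 on the log2 scale) and Slc39a14 (0.927) more closely than Mt3 (0.675), which spans only 126 to 162 RPKM.

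Mt3, the brain form, was abundant and even. It measured 150.3, 134 and 151 RPKM in Cort+/+ CL, 156, 159 and 140.4 RPKM in Cort+/+ MCAO, 126, 147 and 134 RPKM in Cort-/- CL, and 162, 134, 136, 149.5 and 159 RPKM in Cort-/- MCAO. All groups overlapped. The ratio of MCAO to CL was 1.05 (95% confidence interval 0.921 to 1.19) in Cort+/+ mice, 1.09 (0.973 to 1.23) in Cort-/- mice and 1.07 (0.981 to 1.17, limma adjusted p = 0.49) over both. Its closest matches were Rpl31 (0.940), a ribosomal protein, Lamtor1 (0.883), an anchor of lysosomal mTOR signalling, and Eif5a (0.869), a translation factor. Mt4, the metallothionein of stratified epithelia, had 0 reads in 11 libraries and 2, 1 and 1 in the other 3, all under the limit of 3 reads that a count of 0 allows.

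The exporter of the plasma membrane, Slc30a1, had no detectable difference in either direction. It measured 6.57, 6.36 and 6.50 RPKM in Cort+/+ CL, 6.99, 6.11 and 6.25 RPKM in Cort+/+ MCAO, 6.96, 7.55 and 6.06 RPKM in Cort-/- CL, and 6.69, 5.80, 6.57, 7.06 and 6.42 RPKM in Cort-/- MCAO. The ratio of MCAO to CL was 0.995 (95% confidence interval 0.874 to 1.13) in Cort+/+ mice and 0.951 (0.847 to 1.07) in Cort-/- mice, and 0.973 (0.892 to 1.06, limma adjusted p = 0.84) over both. Slc30a1, like Mt1 and Mt2 a textbook target of Mtf1, correlated with them at 0.141 and 0.056, over a range of only 1.30-fold. Whether Mtf1 had a part in these levels was not tested. The nearest genes of Slc30a1, Gm12353 (0.784), Rbm48 (0.762) and Klf11 (0.748), were less close than those of any other member.

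The vesicular transporter Slc30a3 had no detectable difference in hemispheres in which some other neuronal transcripts were lower. It measured 35.5, 32.0 and 36.2 RPKM in Cort+/+ CL and 33.9, 41.9 and 32.7 RPKM in Cort+/+ MCAO. In Cort-/- mice the values were 34.3, 37.9 and 36.8 RPKM in CL and 35.1, 38.8, 32.1, 44.9 and 37.5 RPKM in MCAO. The ratio was 1.04 (95% confidence interval 0.879 to 1.23) in Cort+/+ mice, 1.03 (0.887 to 1.20) in Cort-/- mice and 1.04 (0.925 to 1.16, limma adjusted p = 0.84) over both. Slc17a7, the vesicular glutamate transporter of the same forebrain terminals, was at 1.00-fold (0.938 to 1.07) over both genotypes. Of 8 markers of glutamatergic forebrain neurons, 2 (Camk2a and Nrgn) were called lower over both genotypes. Of the 8, 2 had positive differences, and the median log2 difference was -0.12. All 8 markers of striatal spiny neurons, cells that use GABA, were called lower, with a median of -0.80. The share called was 3.43% of all genes, and 12.5% of those averaging at least 0.5 RPKM when only these were tested. The highest Slc30a3 values were in Cort-/- MCAO replicate 4 and Cort+/+ MCAO replicate 3, the same libraries that led for Mt1, Mt2 and Slc39a14. Over the 14 libraries Slc30a3 correlated with Mt1 at 0.772, with Mt2 at 0.770 and with Slc39a14 at 0.772, against 0.358 with Mt3. Its nearest genes were Prss23 (0.911), Anxa11 (0.886) and Htra4 (0.862).

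The order of the levels was similar in the 4 groups. RPKM is scaled to length, but the lengths used are not given, so the order of genes with near levels depends on them. In Cort+/+ CL replicate 1, Mt1 had 7533 reads at 167 RPKM and Mt2 had 4008 reads at 188 RPKM. Mt1, Mt2 and Mt3 formed an upper tier of 102.5 to 198 RPKM in group means whose ranges overlapped between neighbours in every group. Mt3 led in both CL groups, at 145 and 136 RPKM, and Mt2 led in both MCAO groups, at 171 and 198 RPKM, but in each case the ranges of the first and the next overlapped. Slc30a3 came below them at 34.6 to 37.7 RPKM without overlap. Slc39a14 (7.10 to 8.75 RPKM) and Slc30a1 (6.45 to 6.86 RPKM) came last, with overlapping ranges in all groups but Cort+/+ MCAO.

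Loss of cortistatin made no detectable difference to any of the 6 genes. In CL, the ratio of Cort-/- to Cort+/+ was 0.913 (95% confidence interval 0.536 to 1.55) for Mt1, 0.959 (0.515 to 1.79) for Mt2 and 0.934 (0.821 to 1.06) for Mt3. For the transporters it was 1.03 (0.851 to 1.26) for Slc39a14, 1.05 (0.926 to 1.20) for Slc30a1 and 1.05 (0.888 to 1.25) for Slc30a3. In MCAO the ratio was 1.07 (0.662 to 1.72) for Mt1, 1.18 (0.676 to 2.06) for Mt2, 0.973 (0.868 to 1.09) for Mt3, 1.08 (0.903 to 1.28) for Slc39a14, 1.01 (0.898 to 1.13) for Slc30a1 and 1.04 (0.896 to 1.21) for Slc30a3. The limma adjusted p was 1 for each. Over all genes 0.0152% were called in CL (7 genes) and 0.0174% in MCAO (8 genes).

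Whether the hemispheric difference itself depended on genotype was tested as an interaction, which called 0.00217% of all genes (1 gene) and no member. The response of Mt2 in Cort-/- mice was 1.23 times that in Cort+/+ mice (95% confidence interval 0.534 to 2.84), that of Mt1 was 1.17 times (0.572 to 2.38) and that of Slc39a14 was 1.04 times (0.800 to 1.35). For Mt1 and Mt2 the limits are too wide to tell a weaker from a stronger response in Cort-/- mice. For Mt3 and Slc30a1 the limits were narrower, at 0.877 to 1.24 and 0.804 to 1.14.

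Among the other zinc transporters a single gene passed the test. Of the 10 ZnT genes tested, none was called in any comparison, and over both genotypes their log2 differences had a median of -0.04 against 0 for all genes. Slc30a10, an exporter of manganese, had the lowest value, -0.20 (adjusted p = 0.16), and correlated with Mt2 at -0.865, and Slc30a4, a vesicular exporter, was at -0.10 (adjusted p = 0.46). Of the 14 ZIP genes, 1 was called over both genotypes, in the upward direction, and none within a genotype. The same test called 3.43% of all genes, or 12.5% of those averaging at least 0.5 RPKM when only these were tested, so 1 of 14 lies near the background and is no result about the family. This gene was Slc39a8, which encodes ZIP8, the closest relative of ZIP14: it went from 0.840 ± 0.0258 to 1.13 ± 0.164 RPKM (SD, n = 3 and 3) in Cort+/+ mice and from 0.844 ± 0.0280 to 1.17 ± 0.0975 RPKM (SD, n = 3 and 5) in Cort-/- mice, 1.32-fold over both (95% confidence interval 1.17 to 1.49, limma adjusted p = 0.015). The ubiquitous importer Slc39a1 was at 1.30-fold (1.11 to 1.51, adjusted p = 0.068) and correlated with Mt2 at 0.914. Slc39a12, an importer of astrocytes, was at -0.18 on the log2 scale (adjusted p = 0.39), with a correlation of -0.823 with Mt2.

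**Figure D5:**
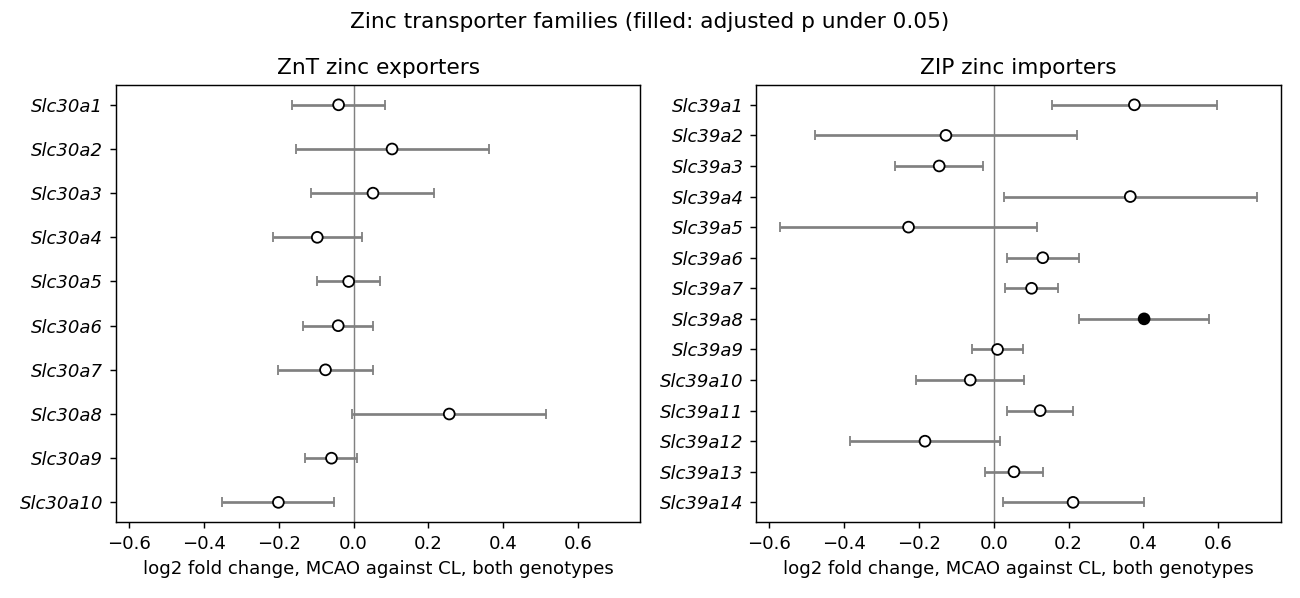
Log2 fold change of MCAO against CL, averaged over both genotypes, with 95% confidence intervals, for the 10 ZnT genes (left) and the 14 ZIP genes (right). Filled points passed the test, which was the case for Slc39a8 (0.40) alone, and Slc30a1, Slc30a3 and Slc39a14 lie at -0.04, 0.05 and 0.21.

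The zinc sensor Mtf1 was at 0.963-fold (95% confidence interval 0.883 to 1.05, limma adjusted p = 0.75) over both genotypes, and none of the 5 genes listed for zinc sensing and zinc release was called. Ap3m2, a subunit of the adaptor that sorts ZnT3 to vesicles, was at -0.06 on the log2 scale (adjusted p = 0.59). Of 7 genes of copper handling, the other metal bound by metallothioneins, none was called. The same test called 3.43% of all genes, so the lack of a call in these 2 short lists lies near the background. All 7 copper genes had positive differences over both genotypes, and 6 of 7 within Cort-/- mice. Their median over both was 0.15, against 0 for all genes, and they were not tested as a set. The copper exporter Atp7a (0.24, adjusted p = 0.24) and the copper chaperone Atox1 (0.20, adjusted p = 0.20) had the largest differences.

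Known inducers of Mt1, Mt2 and Slc39a14 were read beside them. In the list of the interleukin-6 family and the STAT3 route, 3 of 12 genes were called upward over both genotypes and none downward. Within Cort-/- mice 1 was called, Clcf1. The median log2 difference over both was 0.53. The same test called 3.43% of all genes. When only genes averaging at least 0.5 RPKM were tested, 12.5% of them were called, among them 4 of this list. Counts this small were not tested against that background. The 3 called over both genotypes in the main fit were the cytokine Clcf1 (4.81-fold, limma adjusted p = 0.00030), the feedback inhibitor Socs3 (2.58-fold, adjusted p = 0.022) and oncostatin M, Osm (1.86-fold, adjusted p = 0.039). Osm averaged only 0.122 RPKM over the 14 libraries, with group means from 0.0285 to 0.190 RPKM. This is close to the 0.1 RPKM added before the logarithm, so its fold change depends on that constant. The 8 genes of this list averaging 1 RPKM or more correlated with Mt2 at between -0.264 and 0.926 over the 14 libraries, with a median of 0.39. Stat3 (0.926), Socs3 (0.877), Osmr (0.839) and Clcf1 (0.677) were the highest, and Il6st (0.102), Lifr (0.024), Jak1 (-0.140) and Jak2 (-0.264) showed little or no relation. In the glucocorticoid list 1 of 9 genes was called, downward: Nr3c2, the mineralocorticoid receptor, at 0.872-fold over both genotypes (adjusted p = 0.027), and 1 of 9 is likewise near the background of 3.43% and 12.5%. All 9 had negative differences over both genotypes, with a median of -0.20 against 0 for all genes, and they were not tested as a set. Fkbp5, a sensitive glucocorticoid target, was at 0.937-fold (95% confidence interval 0.676 to 1.30) and correlated with Mt2 at 0.706, the highest of a list that ran from there down to -0.821 for Nr3c2 with a median of 0.12. Whether cytokine or glucocorticoid signalling had a part in the spread of Mt1 and Mt2 was not tested.

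Cell type markers moved with the same libraries, and their part in the levels of Mt1, Mt2 and Slc39a14 was not tested. Of 8 astrocyte markers, all above 0 in every library, Gfap (3.57-fold), Aqp4 (1.50-fold) and Aldh1l1 were called upward over both genotypes. The share called was 3.43% of all genes, and 12.5% of those averaging at least 0.5 RPKM when only these were tested. The median over the 8 markers was 0.01 on the log2 scale. Their summed level ran from 574 to 705 RPKM in Cort+/+ CL, 600.1 to 659 RPKM in Cort-/- CL, 660 to 822 RPKM in Cort+/+ MCAO and 672 to 852 RPKM in Cort-/- MCAO. Cort+/+ CL replicate 1, the CL library with the most Mt1 and Mt2, also had the highest astrocyte sum of the CL libraries, 705 RPKM. The astrocyte sum correlated with Slc39a14 at 0.896, with Mt2 at 0.833 and with Mt1 at 0.789, but its members did not share this. With Mt2, Aldh1l1 (0.831), Gfap (0.821), Aqp4 (0.614) and Gjb6 (0.595) were positive, and Slc1a2 (-0.725), S100b (-0.567), Gja1 (-0.500) and Slc1a3 (-0.362) were negative. Correlation with Mt2 was not particular to the astrocyte sum. It was 0.725 for the microglia and macrophage sum, 0.631 for the endothelial sum and 0.122 for the blood and choroid plexus sum. It was -0.663 for the striatal, -0.658 for the oligodendrocyte, -0.614 for the neuron and -0.411 for the glutamatergic sum.

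The 8 microglia and macrophage markers summed to 59.6 to 68.3 RPKM in the CL libraries and to 83.8 to 154 RPKM in MCAO. Of the 8, 7 were called upward over both genotypes. The share called was 3.43% of all genes, and 12.5% of those averaging at least 0.5 RPKM when only these were tested. The 8 striatal markers summed to 398 to 447 RPKM in CL and to 188 to 371 RPKM in MCAO. Neither sum overlapped between the hemispheres over both genotypes together, whereas each of the 6 single genes overlapped within each genotype. Among all single genes, 9.84% did not overlap in Cort+/+ mice and 9.11% in Cort-/- mice. These shares are for single genes within 1 genotype and give no background for a sum of 8 genes. Cort-/- MCAO replicate 3, the lowest of its group for Mt1, Mt2 and Slc39a14, had the lowest microglial sum of the group (95.2 RPKM) and the highest striatal sum (294 RPKM). Cort+/+ MCAO replicate 4 had the lowest microglial (83.8 RPKM) and highest striatal sum (371 RPKM) of its group, and the lowest Slc39a14 (7.22 RPKM). The lowest Mt1 and Mt2 of that group (113 and 118 RPKM) were in replicate 2, whose microglial and striatal sums were 121 and 273 RPKM. The marker sums did not order the top libraries in the same way: Cort-/- MCAO replicate 1 had the most microglial and least striatal signal (154 and 188 RPKM) at 202 RPKM of Mt2, and replicate 4, with 329 RPKM of Mt2, had 143 and 229 RPKM.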

How the data were processed

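RNA-seq libraries from 14 mouse brain hemispheres were analysed from 1 deposited table of RPKM values, which the authors made with the reanalyzerGSE pipeline on GRCm39 and a GENCODE annotation from stranded libraries of polyadenylated RNA. The gene lengths and library scaling behind the RPKM are not given in the sources used here. The study's methods state that in comparisons with large variability only clearly grouped replicates were included, which can lower the spread between libraries, and Cort+/+ MCAO replicates 1 and 5 were not analysed here. Groups were taken from the sample titles.

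The ratios of low values returned whole reads for 100% of 495656 values above 0 (tolerance 1e-06), giving 25989673 to 43032291 reads per library. The reads of all 19 pairs of libraries of 1 group differed by more than sampling allows (a chi-square statistic of 5.21 to 23.0 times its degrees of freedom). Genes above 0 in at least 2 libraries were fitted in limma 3.58.1 (R 4.3.3) on log2(RPKM + 0.1), with a mean-variance trend and Benjamini-Hochberg adjustment at 0.05. Fold changes are on this scale, which understates those of low genes. The fits were tested on simulated data. Exact permutation tests used Python 3.11.15, and correlations are Pearson's on the log2 scale. Counting errors cover reads only.

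The 6 genes were named by symbol. From each further list other than the markers, the genes called in any comparison were named, up to 5 by smallest p, or otherwise 2 of the largest changes at a mean of at least 1 RPKM; Slc39a1, Slc39a12, Slc17a7, Fkbp5 and the genes given with correlations only were named after their values were seen. The members and lists were chosen with earlier results of these data known. The alternatives covered the pseudocount, filters, scaling, weights, blocks, a voom fit of the recovered reads and the omission of each library.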

Additional observations from a re-analysis of the deposited data

How the results depend on the processing

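None of the 6 genes passed the limma test in any comparison under any of the 26 alternatives, and the lowest adjusted p reached was 0.0957 (Slc39a14, MCAO against CL over both genotypes). Of the 912 values of single genes under these alternatives 39 had the opposite sign to the reported value, none of them called, and the cause was not tested. The number of members with an exact permutation p below 0.05 was 1, and ranged from 0 to 3 when 1 library was left out. It was 3 without Cort+/+ CL replicate 1.

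With RPKM rescaled to TPM, Slc30a1 in Cort+/+ mice was 0.021 and Mt3 between genotypes in MCAO 0.018. With array weights, Slc30a1 between genotypes in MCAO was -0.011, and with quantile normalization the interaction of Slc30a3 was 0.001. Leaving out 1 library gave ranges on the log2 scale that crossed 0. For MCAO against CL these were -0.067 to 0.030 for Slc30a1 and -0.052 to 0.126 for Slc30a3 in Cort+/+ mice, -0.020 to 0.10 for Slc30a3 in Cort-/- mice and -0.003 to 0.085 for Slc30a3 over both genotypes, in the permutation test as well. Between genotypes in CL they were -0.381 to 0.164 for Mt1, -0.309 to 0.291 for Mt2 and -0.014 to 0.134 for Slc39a14. Between genotypes in MCAO they were -0.108 to 0.384 for Mt1, -0.026 to 0.071 for Slc30a1 and -0.008 to 0.169 for Slc30a3. For the interaction they were -0.072 to 0.516 for Mt1, -0.052 to 0.704 for Mt2, -0.029 to 0.153 for Slc39a14, -0.149 to 0.007 for Slc30a1 and -0.081 to 0.097 for Slc30a3.

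Same-numbered MCAO and CL libraries did not consistently deviate together (correlations from -0.239 to 0.316 over 5 pairs), so the main fit did not take the numbers as pairs. So few pairs cannot settle whether such libraries came from the same mouse. With the replicate block as a fixed term, which keeps only the pairs, no gene of the table was called for hemisphere. In that block fit the interaction, reported at 0.22 for Mt1 and 0.30 for Mt2, turned to -0.462 and -0.583, and it was -0.064 for Mt3 and -0.232 for Slc39a14, and the hemispheric difference was 0.023 for Slc30a1 in Cort+/+ mice and -0.043 for Slc30a3 in Cort-/- mice. With the block as a random term (correlation -0.004) no member was called. A voom fit of the recovered reads called 0.124%, 2.81% and 4.65% of all genes for hemisphere in Cort+/+ mice, in Cort-/- mice and over both. The counts over both genotypes of the other lists moved more than those of the members. The copper list, at 0, had 2 genes called with the filter at a mean of 0.5 RPKM and at most 1 when 1 library was left out. The ZIP list had 2 genes called under voom, array weights, a filter at a mean of 0.5 RPKM and without Cort-/- MCAO replicate 3 or Cort+/+ CL replicate 1, and 0 with the fixed block. The interleukin-6 list, at 3, ranged from 0 with the fixed block to 7 under voom, and was 1 without Cort-/- CL replicate 1 or 3, Cort+/+ CL replicate 2 or 3 or Cort+/+ MCAO replicate 3. It was 6 when Cort-/- MCAO replicate 3 or Cort+/+ MCAO replicate 4 was left out. The glucocorticoid list lost its 1 call after rescaling to TPM, with the fixed block and in 6 of 14 omissions (Cort-/- CL replicates 1 and 3, Cort+/+ CL replicates 2 and 3, Cort+/+ MCAO replicates 2 and 3).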
